A study of Mus musculus with 46 samples.

Results

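The 40 genes described here encode enzymes and membrane proteins of the lysosome, and their RNA was measured in 46 AB1-HA tumors. They were chosen by name as rows of the count table, with earlier results of these tumors known, and the rule set no threshold on a measured value. All 40 were present among the 46011 complete rows of the table, of which 30493 had a count above 0. All 40 also passed the filter on low counts in every comparison. AB1-HA is a mouse mesothelioma line that carries influenza haemagglutinin as a model tumor antigen, and it was grown under the skin of male BALB/c mice aged 8-10 weeks. Each mouse bore a pair of tumors and received 200 mg/kg of cyclophosphamide (CY), an alkylating chemotherapy, on day 10 after inoculation. One tumor was excised and sequenced, and the other was left to show the response. Complete responders (CR) were set against PR mice, a label that the series' text spells out as partial responders and the paper as progressors. The groups were 13 CR and 13 PR tumors taken 1 day before CY (Day-1, day 9), 5 CR and 5 PR tumors taken 3 days after it (Day+3, day 13), and 5 CR and 5 PR tumors taken 7 days after it (Day+7, day 17). Each tumor was taken once, and the response was read on the mouse's other tumor. All groups shared the line, the strain and the sex, and no group went without CY after Day-1, so the time since CY, the age of the tumor and the sequencing depth cannot be told apart.

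Lysosomes are acidic organelles in which hydrolases break down engulfed and worn-out material. Most of these enzymes are made at the endoplasmic reticulum, tagged with mannose 6-phosphate and carried to the lysosome by receptors, while a proton pump keeps the lumen acid. Macrophages, which clear dying cells, are rich in lysosomes, and osteoclasts, the multinucleate bone-resorbing cells of the same lineage, secrete cathepsin K and tartrate-resistant acid phosphatase. Many lysosomal genes carry a short promoter element, bound by the transcription factor TFEB and its relatives, with the core CACGTG.

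The promoters were read for the letters of that element. RefSeq windows of GRCm38.p6, 300 bases long with 250 before and 50 after each start site, were found for 34 of the 40 members. The core CACGTG, which reads the same on both strands, was in the windows of 11 of the 34 members (32.4%), against 8.09% of the 27025 gene symbols with a window. The 7 letters TCACGTG, on either strand, were in 9 of the 34 (26.5%), against 4.29% of all symbols. The 8 letters TCACGTGA, which contain both shorter forms, were in 3 of the 34 (8.82%), against 1.12%. The element is known from lysosomal genes, so these shares are not independent of the choice of lysosomal genes as members. The 9 members with the 7 letters are shown in the direction of transcription, with the matched letters in capitals.
Ctsd, chr7:142387908-142387937, minus strand, 110 to 81 bases before the start: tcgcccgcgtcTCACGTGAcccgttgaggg
Ctsa, chr2:164833749-164833772, plus strand, ending just before the start: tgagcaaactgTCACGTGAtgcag
Gla, chrX:134601182-134601244, minus strand, 239 to 177 bases before the start: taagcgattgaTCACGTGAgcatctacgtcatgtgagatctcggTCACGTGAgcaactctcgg
Lamp1, chr8:13159088-13159160, plus strand, ending just before the start: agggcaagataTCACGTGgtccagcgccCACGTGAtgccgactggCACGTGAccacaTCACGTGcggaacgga
Glb1, chr9:114401018-114401047, plus strand, 60 to 31 bases before the start: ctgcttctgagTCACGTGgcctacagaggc
Naglu, chr11:101070009-101070038, plus strand, 85 to 56 bases before the start: caaccttcaggTCACGTGgcccgaggtcgg
Lgmn, chr12:102439124-102439153, minus strand, 61 to 32 bases before the start: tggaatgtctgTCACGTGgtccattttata
Gaa, chr11:119267811-119267840, plus strand, 152 to 123 bases before the start: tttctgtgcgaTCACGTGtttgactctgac
Arsa, chr15:89477425-89477452, minus strand, ending just before the start: tcaactcagtgTCACGTGttgtctgctc
Lamp1 had 4 copies of the core in 73 bases, and Gla had 2 copies of the 8 letters. Ctsd had a further copy of the 7 letters with its core starting 245 bases before the start, and Ctsa a further copy of the 8 letters with its core starting 5 bases after it. The size of change of the 9 genes was not tested against that of the others. Their median log2 fold change was 0.75 at Day+3 against Day-1, and that of the 25 other matched members was 0.78. At Day+7 against Day-1 the medians were 0.80 and 0.95. These matches are a description of letters in a window and were not tested as binding sites.

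The count table used here ends within the row of Pax7, so library totals and shares of counts are over the rows present. On that basis the libraries held 10227681 to 14218987 counts at Day-1, 15412744 to 18748688 counts at Day+3 and 16047930 to 19446596 counts at Day+7. The members took 1.28 to 1.48% of all counts at Day-1, 2.59 to 3.27% at Day+3 and 2.29 to 2.88% at Day+7. The share at Day-1 did not overlap with that at either later time point. Among markers of the mesothelial lineage, Msln had a median of 375 CPM (counts-per-million) at Day-1, 351 at Day+3 and 58.7 at Day+7. Krt8 had medians of 9.98, 12.6 and 0.427 CPM at these times. The medians of Krt18 and Krt19 were at most 0.319 CPM, and Muc16 was at 0 in 42 tumors. A total of 16 tumors held more than 10 CPM of the skin keratin Krt5, and 1 tumor stood apart at Day+7. In that tumor, CR replicate 4, the fibroblast markers summed to 32800 CPM, against 10600 to 16800 CPM in the other 9 Day+7 tumors. Its macrophage, osteoclast and neutrophil marker sums lay within the range of those 9. The same tumor had the highest sum of mesothelial markers, at 134 CPM against 52 to 69 CPM, and the lowest of T cell markers, at 101 CPM. It had the lowest level of the 10 Day+7 tumors for 25 of the 40 members and the highest for 6. Without it, 34 members were higher and 6 lower at Day+7 against Day-1, and 22 were higher and 12 lower at Day+7 against Day+3. Shares of all genes called in that fit are not given here, so these counts only show how far the calls depend on this tumor. In bulk tumors, fewer cells of a type and less RNA per cell cannot be told apart.

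After CY, nearly all of the lysosomal genes changed, and most rose. At Day+3, 36 of the 40 members were higher than at Day-1 and 4 were lower, at an adjusted p under 0.1 in edgeR. Of all 13194 genes tested, 37.9% were called higher and 39.6% lower in that comparison, so calls were frequent in both directions. The median log2 fold change was 0.71 over the members and -0.02 over all genes. For 29 members every Day+3 tumor was above every Day-1 tumor, against 13.7% of all genes, and for 1 member, Ids, every Day+3 tumor was below, against 13.2%. At Day+7, 33 members were higher than at Day-1, 6 were lower and 1 (Glb1) did not pass, against 43% of all genes called higher and 42.8% called lower. The median log2 fold change was 0.86 over the members and -0.01 over all genes. For 29 members every Day+7 tumor was above every Day-1 tumor, against 20.1% of all genes, and for 2, Arsb and Ids, every one was below, against 19.2%. Between Day+7 and Day+3 the members split. In that comparison 20 were higher and 13 lower, against 38.8% and 36.5% of all genes, with a median log2 difference of 0.19 over the members and 0.02 over all genes. With library sizes alone as scaling, 15 members were higher and 20 lower in that comparison, with 26.6% of all genes called higher. The median log2 difference of all genes was below 0 under that scaling. The share of all genes called lower is not given here, so the 20 members cannot be set against it. Under the main scaling the groups did not overlap for 10 members above and 8 below, against 18% and 18.8% of all genes. The comparisons with Day-1 share the Day-1 tumors, and those with Day+3 share the Day+3 tumors.

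**Figure D1:**
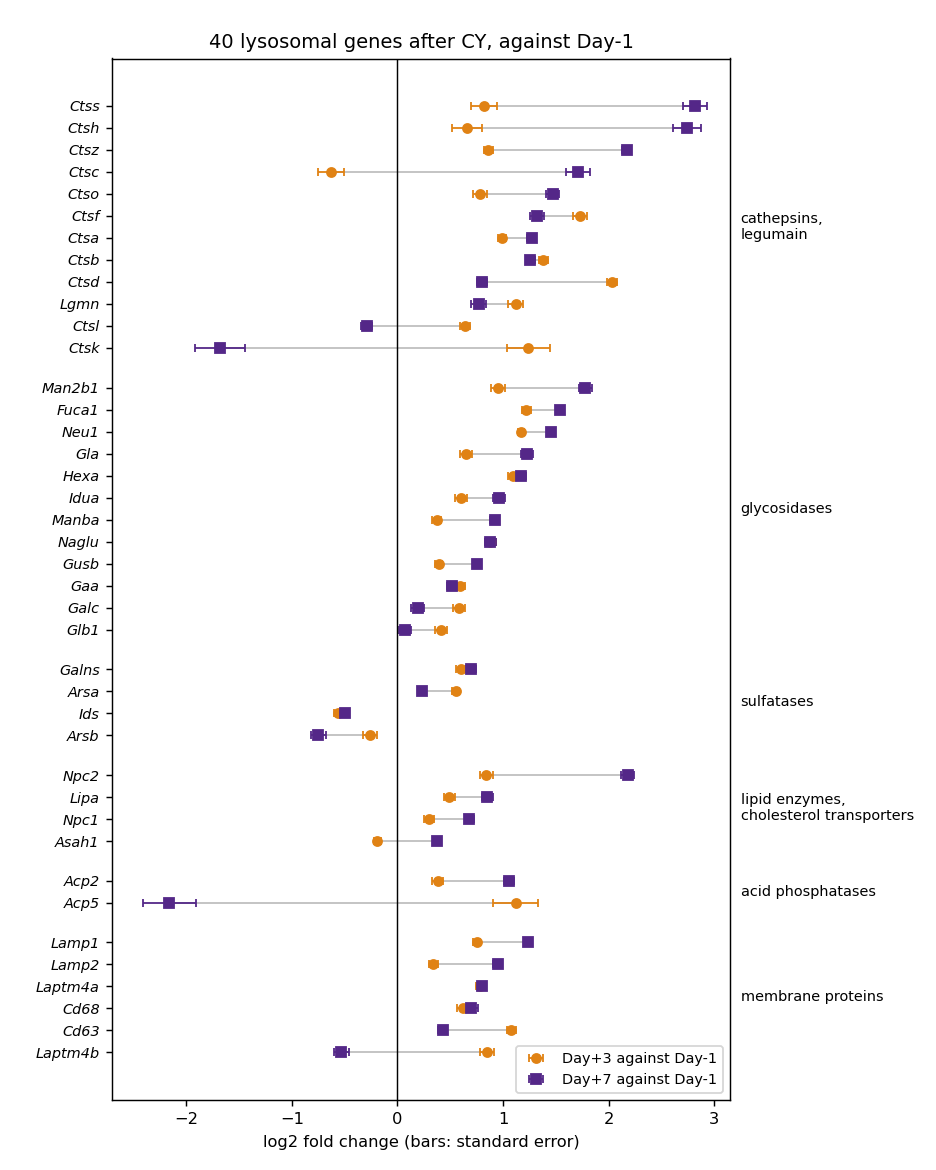
Log2 fold change against Day-1 (x axis, bars are standard errors) of each of the 40 members, grouped by role and ordered by the Day+7 value, with circles for Day+3 and squares for Day+7. Most points lie right of 0, Ctss and Ctsh reach 2.82 and 2.74 at Day+7, and Ctsk and Acp5 lie right of 0 at Day+3 and left of it at Day+7.

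The cathepsins, proteases of the lysosome, held both the largest rise and the largest fall of the members at Day+3 (Ctsd and Ctsc). Of the 12 members of this group, which includes the asparagine-specific protease legumain (Lgmn), 11 were higher and 1 lower at Day+3, and 10 were higher and 2 lower at Day+7, against Day-1. The Day+3 rise was largest for Ctsd, the aspartic protease cathepsin D. Ctsd stood at 735 to 1040 CPM at Day-1 (median 933). It reached 4110, 3930, 4160, 3470 and 3630 CPM in the CR tumors of Day+3 and 3250, 4310, 4590, 3830 and 3620 CPM in the PR tumors. At Day+7 it stood at 1470 to 1740 CPM (median 1630), so each time point was separate from the others. The log2 fold change of Ctsd was 2.03 ± 0.0459 (SE) at Day+3 and 0.80 ± 0.0475 at Day+7, against Day-1 (edgeR adjusted p = 2.63e-34 and 5.98e-20). Ctsf, a cysteine cathepsin, followed the same order at a lower level, with medians of 12.4, 42.7 and 29.2 CPM at Day-1, Day+3 and Day+7. Ctsb, the widely expressed cathepsin B, had medians of 1570, 4170 and 3710 CPM, a log2 fold change of 1.38 at Day+3 and of 1.26 at Day+7. Lgmn was 1.12 and 0.77 higher on that scale. A score of 10 macrophage markers (their mean z-score of log2 CPM) was also used as a covariate, with a common slope for all time points. The summed CPM of these markers did not overlap between Day-1 and the later days. Values with this covariate, here and below, are therefore extrapolated and cannot separate the time point from the score. With it, the Day+7 value of Lgmn turned to -0.50.

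Ctss, Ctsh and Ctsz rose mainly between Day+3 and Day+7. Ctss, cathepsin S, which trims the invariant chain of MHC class II in antigen-presenting cells, was named after its values were seen. Its median was 655 CPM at Day-1, 1170 CPM at Day+3 and 4890 CPM at Day+7. The CR tumors of Day+7 held 5440, 4630, 5020, 2550 and 4170 CPM, and the PR tumors 4810, 4410, 5020, 4980 and 5740 CPM. All were above the highest Day+3 value of 1550 CPM, and the lowest of them was the CR tumor with high fibroblast markers. The log2 fold change of Ctss was 2.82 ± 0.114 at Day+7 and 0.82 ± 0.119 at Day+3, against Day-1 (edgeR adjusted p = 3.85e-26 and 4.93e-08). Ctsh, an aminopeptidase of the cathepsin family, had medians of 89.1, 142 and 609 CPM and was 6.66-fold higher at Day+7 than at Day-1. Ctsz, a carboxypeptidase, was 4.51-fold higher at Day+7 and 1.81-fold higher at Day+3, with the smallest adjusted p of the members at Day+7 (edgeR, 6.16e-38). Ctsa, the serine carboxypeptidase that protects Neu1 and Glb1 in a complex, rose to a median of 972 CPM at Day+7 and 810 CPM at Day+3, against 401 CPM at Day-1. Ctso was 2.77-fold higher at Day+7 than at Day-1. With the macrophage score as a covariate, the Day+3 values against Day-1 turned to -0.46 for Ctss and -0.70 for Ctsh, and the Day+7 value of Ctsh, at 0.32, did not pass (edgeR adjusted p = 0.478).

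Ctsc, which activates the granule proteases of neutrophils and cytotoxic lymphocytes, fell first and then rose. It stood at 395 to 1060 CPM at Day-1 (median 625). The CR tumors of Day+3 held 333, 463, 414, 572 and 427 CPM and the PR tumors 426, 401, 307, 449 and 590 CPM, which overlapped with the lower Day-1 values. At Day+7 the CR tumors held 2660, 1850, 2790, 1320 and 2040 CPM and the PR tumors 1660, 2020, 2230, 2210 and 2740 CPM, all above Day-1. Its log2 fold change against Day-1 was -0.63 ± 0.124 at Day+3 and 1.71 ± 0.112 at Day+7 (edgeR adjusted p = 1.65e-05 and 2.06e-18). Neutrophil markers summed to a median of 42.1 CPM at Day-1, 84.5 at Day+3 and 417 at Day+7. The 6 T cell markers summed to medians of 67.6, 48.8 and 222 CPM, with 3 called lower and none higher at Day+3 and all 6 called higher at Day+7, against Day-1. The part of these cells in the change of Ctsc was not tested. With the macrophage score as a covariate, the Day+7 value against Day-1 turned to -0.20.

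Ctsk, the collagen-degrading cathepsin K, and Acp5, tartrate-resistant acid phosphatase, went the other way at Day+7. Ctsk ranged from 298 to 1860 CPM at Day-1 (median 786). It held 1860, 2490, 2340, 1120 and 1390 CPM in the CR tumors of Day+3 and 1160, 2900, 3810, 2140 and 1220 CPM in the PR tumors. At Day+7 it held 192, 240, 427, 469 and 193 CPM in CR tumors and 222, 196, 258, 224 and 227 CPM in PR tumors. All Day+7 values were below all Day+3 values, while each overlapped with the wide Day-1 range. The log2 difference of Day+7 against Day+3 was -2.92 ± 0.278 for Ctsk and -3.28 ± 0.292 for Acp5 (edgeR adjusted p = 8.08e-13 and 1.07e-13), the largest falls among the members. Against Day-1, Ctsk was 1.24 ± 0.204 higher at Day+3 and fell by 1.68 ± 0.238 at Day+7 on the log2 scale. Acp5 had medians of 567, 1370 and 114 CPM at Day-1, Day+3 and Day+7, with a log2 fold change against Day-1 of 1.12 ± 0.212 at Day+3 and -2.16 ± 0.254 at Day+7. Ctsl, cathepsin L, showed the same order with less change, at medians of 1180, 1830 and 972 CPM. With the macrophage score as a covariate, the Day+7 values against Day-1 turned to 1.80 for Ctsk and 1.50 for Acp5. That of Ctsl, at -0.17, did not pass (edgeR adjusted p = 0.459).

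**Figure D2:**
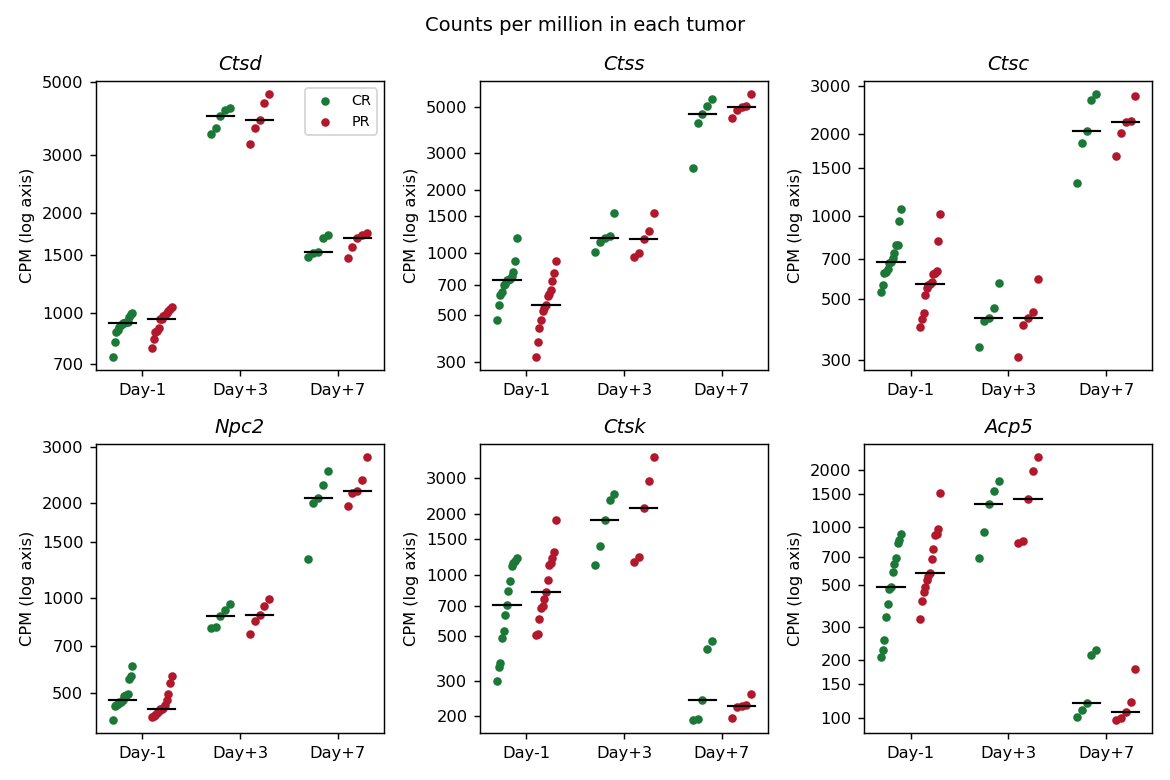
CPM on a log axis in each of the 46 tumors for Ctsd, Ctss, Ctsc, Npc2, Ctsk and Acp5, with CR tumors (green) left of PR tumors (red) at each time point and black lines for group medians. Ctsd peaks at Day+3, Ctss, Ctsc and Npc2 are highest at Day+7, and Ctsk and Acp5 are lowest at Day+7, with CR and PR tumors overlapping throughout.

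Markers of osteoclasts moved alike in their sum with Ctsk and Acp5. The summed level of 7 such markers, none of them a member, was 443 to 2440 CPM at Day-1 (median 1070), 1360 to 4160 CPM at Day+3 (2290) and 354 to 673 CPM at Day+7 (416). Most of the sum was Mmp9, a gelatinase that neutrophils and macrophages also make, at medians of 735, 2040 and 237 CPM. Of the list, 5 of 7 genes were called higher and 1 lower at Day+3, and 2 higher and 5 lower at Day+7, against Day-1. Calcr, the calcitonin receptor, had medians of 0.938, 4.80 and 0.176 CPM and was at 0 in 1 tumor, whereas Dcstamp, a fusion protein of these cells, was highest at Day+7 at 29.9 CPM. The macrophage markers summed to medians of 2440, 5480 and 9350 CPM, and all 10 were called higher at both later time points. The fibroblast markers, which include collagens, summed to medians of 24700, 32600 and 14300 CPM. The part of these cells in the changes of the members was not tested.

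The glycosidases, which remove sugars from glycoproteins, glycolipids and glycosaminoglycans, rose as a group. All 12 were higher at Day+3, with log2 fold changes of 0.37 to 1.22, and 11 of 12 were higher at Day+7, at 0.07 to 1.78 over the group. Neu1, the lysosomal sialidase, had the smallest standard errors of the group. It stood at 33.8 to 42.2 CPM at Day-1, 80.3 to 95.7 CPM at Day+3 and 85.5 to 115 CPM at Day+7, a log2 fold change of 1.17 ± 0.0292 at Day+3 and 1.45 ± 0.029 at Day+7 (edgeR adjusted p = 6.68e-33 and 5.13e-37). Fuca1, the fucosidase, was 2.33-fold higher at Day+3 and 2.91-fold higher at Day+7. Man2b1, an alpha-mannosidase, rose most at Day+7, to 802, 918, 749, 512 and 784 CPM in CR tumors and 995, 735, 824, 939 and 985 CPM in PR tumors, against 172 to 354 CPM at Day-1. Hexa, a subunit of beta-hexosaminidase, had medians of 229, 482 and 504 CPM at Day-1, Day+3 and Day+7. The exception was Glb1, the beta-galactosidase behind the senescence stain. Glb1 was 1.33-fold higher at Day+3 (edgeR adjusted p = 2.15e-08), and at Day+7 its median was 118 CPM, against 112 CPM at Day-1, a log2 fold change of 0.07 ± 0.058 (edgeR adjusted p = 0.258). Without CR replicate 4 of Day+7 it was called, at 0.11, with library sizes alone as scaling it was called lower, at -0.10, and with the macrophage score as a covariate it was called higher, at 0.91. Galc, which splits galactosylceramide, rose by 0.58 at Day+3 and by 0.19 at Day+7 on the log2 scale, and with the macrophage score as a covariate its Day+3 value, at 0.20, did not pass (edgeR adjusted p = 0.108) and its Day+7 value turned to -0.49. At Day+7, with library sizes alone as scaling, it was 0.03 and did not pass (edgeR adjusted p = 0.669).

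The 4 sulfatases, which remove sulfate from glycosaminoglycans and sulfatide, split. Galns was 1.51-fold higher at Day+3 and 1.62-fold higher at Day+7, and Arsa 1.47-fold and 1.17-fold higher. The Day+7 call of Arsa was lost with library sizes alone as scaling (log2 fold change 0.06, edgeR adjusted p = 0.112). Ids, which starts the breakdown of heparan and dermatan sulfate, was lower after CY in every tumor. It held 117 to 140 CPM at Day+3 and 116 to 140 CPM at Day+7, against 158 to 211 CPM at Day-1, a log2 fold change of -0.56 ± 0.0394 and -0.50 ± 0.0394 (edgeR adjusted p = 5.44e-17 and 8.59e-16). Arsb, which acts on dermatan and chondroitin sulfate, had medians of 250, 214 and 146 CPM at Day-1, Day+3 and Day+7. Its log2 fold change was -0.26 ± 0.0702 at Day+3 and -0.75 ± 0.0723 at Day+7. Its Day+3 call was lost without the tumors above 10 CPM of Krt5 (edgeR adjusted p = 0.178), and with the macrophage score as a covariate both values turned, to 0.18 and 0.04.

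Among the lipid genes, Npc2, the soluble protein that hands cholesterol to the membrane transporter Npc1, rose most. Its median was 464 CPM at Day-1, 876 CPM at Day+3 and 2160 CPM at Day+7, and the time points did not overlap. The log2 fold change of Npc2 against Day-1 was 0.84 ± 0.0626 at Day+3 and 2.18 ± 0.0605 at Day+7 (edgeR adjusted p = 3.99e-16 and 4.27e-32). Npc1 itself was 1.23-fold and 1.61-fold higher, and Lipa, the acid lipase that frees cholesterol from its esters, was 1.41-fold and 1.81-fold higher. With the macrophage score as a covariate both calls were lost for Npc1 (log2 fold changes 0.06 and 0.26, edgeR adjusted p = 0.59 and 0.163) and for Lipa (0.18 and 0.29, edgeR adjusted p = 0.129 and 0.164). Asah1, acid ceramidase, was lower at Day+3, at 209 to 255 CPM, against 236 to 293 CPM at Day-1, and higher at Day+7, at 288 to 398 CPM. Its log2 fold change was -0.19 ± 0.0366 at Day+3 and 0.37 ± 0.0356 at Day+7. Acp2, the other acid phosphatase, did not follow Acp5. Acp2 had medians of 140, 184 and 300 CPM at Day-1, Day+3 and Day+7 and was 2.09-fold higher at Day+7 than at Day-1, and its Day+3 value turned to -0.04 with the macrophage score as a covariate.

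Of the 6 membrane proteins, all were higher at Day+3 and 5 were higher at Day+7, against Day-1. Lamp1 and Lamp2 are the main glycoproteins of the lysosomal membrane. Lamp1 had medians of 752, 1330 and 1820 CPM at Day-1, Day+3 and Day+7, and Lamp2 of 441, 583 and 843 CPM. With the macrophage score as a covariate the Day+3 value of Lamp2 turned to -0.07, and its Day+7 value, at 0.22, did not pass (edgeR adjusted p = 0.126). Laptm4a, a small membrane protein, was 1.72-fold higher at Day+3 and 1.74-fold higher at Day+7. Its relative Laptm4b fell below Day-1 at Day+7. Laptm4b held 186 to 231 CPM at Day+3, above every Day-1 tumor, and 71.5, 85.2, 70.3, 137 and 68.3 CPM in the CR tumors and 74.7, 77.3, 63.0, 70.8 and 63.8 CPM in the PR tumors of Day+7, against 84.2 to 152 CPM at Day-1. The highest of the Day+7 values was again CR replicate 4. The log2 fold change was 0.85 ± 0.0675 at Day+3 and -0.53 ± 0.0728 at Day+7 (edgeR adjusted p = 2.85e-15 and 1.04e-08). Cd63, a tetraspanin of late endosomes and exosomes, peaked at Day+3 with medians of 612, 1340 and 809 CPM. Cd68, a membrane protein widely used as a macrophage marker, rose 1.54-fold at Day+3 and 1.63-fold at Day+7 and did not pass the test between these days (log2 difference 0.08 ± 0.075, edgeR adjusted p = 0.33).

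By the 3 time comparisons together, the members fell into 8 patterns. These patterns were counted for the members alone, so they cannot be set against a share of all genes. The most frequent, with 18 members, was higher at Day+3 and higher again at Day+7. A further 7 were higher than Day-1 at both times with a fall between Day+3 and Day+7 (among them Ctsd, Cd63 and Lgmn, and Ctsb, whose log2 difference of -0.12 lost its call without PR replicate 2 of Day+3, PR replicate 2 of Day+7 or CR replicate 4 of Day+7), and 6 were higher at both with no call between them. The 4 genes that were higher at Day+3 and lower than Day-1 at Day+7 were Ctsk, Ctsl, Acp5 and Laptm4b. Ctsc and Asah1 were lower and then higher, Arsb fell at each step, Ids was lower at both, and Glb1 returned to a level that did not pass against Day-1.

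In each of the other lists of the lysosomal machinery more genes were called higher than lower, to be read against the 37.9% of all genes called higher and 39.6% called lower at Day+3, and 43% and 42.8% at Day+7. Of 17 proton pump genes, 12 were higher and none lower at Day+3, and 14 were higher and 1 lower at Day+7, against Day-1. The pump subunit Atp6v0d1 had medians of 99.8, 193 and 253 CPM. Atp6v0d2, the related subunit known from osteoclasts and macrophages, was the 1 that was lower and was named after its values were seen. It had medians of 151, 131 and 30.7 CPM, with a log2 fold change of -0.29 ± 0.19 at Day+3, which did not pass (edgeR adjusted p = 0.163), and of -2.43 ± 0.22 at Day+7 (edgeR adjusted p = 9.93e-14). Both receptors for mannose 6-phosphate were called at Day+7, in opposite directions. M6pr had medians of 379, 359 and 648 CPM at Day-1, Day+3 and Day+7, and Igf2r of 240, 260 and 86.2 CPM, with log2 fold changes at Day+7 of 0.78 ± 0.0392 and -1.44 ± 0.0647 (edgeR adjusted p = 1.36e-22 and 1.84e-24). Of all 11 genes that deliver enzymes, 6 were higher and 3 lower at Day+3, and 7 were higher and 3 lower at Day+7. Gnptab, a subunit of the enzyme that adds the tag, was among the lower genes at both times. Nagpa, which uncovers the mannose 6-phosphate tag, was among those that rose at Day+7 (log2 fold change 1.28).

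Of 24 other lysosomal proteins, 21 were higher and 1 lower at Day+3, and 20 were higher and 3 lower at Day+7. Dnase2a, which digests the DNA of engulfed cells, had medians of 45.3, 96.3 and 115 CPM at Day-1, Day+3 and Day+7. Of the 4 cathepsin inhibitors, 3 were higher at Day+3, and 3 were higher and 1 (Cst6) lower at Day+7. Cst7, cystatin F, which inhibits cathepsin C in immune cells, stood at 26.2 to 78.3 CPM at Day+7, against 2.93 to 9.21 CPM at Day-1, a log2 fold change of 3.24 ± 0.123 (edgeR adjusted p = 3.61e-27). Cst3, cystatin C, had medians of 795, 1580 and 2420 CPM. Of 12 genes of lysosomal signalling, 7 were higher and 4 lower at Day+3, and 9 were higher and 3 lower at Day+7, with Mtor, Fnip1 and Fnip2 lower at both times. The cation channel Mcoln2 reached 99 to 158 CPM at Day+7, against 5.83 to 16.8 CPM at Day-1, and Lamtor4, a part of the Ragulator complex that anchors mTORC1, was 1.61 higher on the log2 scale.

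Response was compared within each time point, and no member passed the main test between CR and PR tumors. None of the 40 members was called at Day-1, Day+3 or Day+7, where 0.00928%, 0% and 0% of all genes were called. At an unadjusted p under 0.05, 10 members of 40 differed at Day-1, against 17.5% of all genes, and all 10 were higher in CR tumors, against 9.25% of all genes that were higher at that p. None did at Day+3 or Day+7, against 2.16% and 2.84% of all genes. Ctsh held 51.5 to 168 CPM in CR tumors (median 103) and 36.4 to 123 CPM in PR tumors (median 71.9) at Day-1, a log2 fold change of 0.51 with a 95% interval of 0.16 to 0.85 (edgeR adjusted p = 0.157). Man2b1 held 216 to 354 CPM in CR tumors (median 250) and 172 to 261 CPM in PR tumors (median 215), a log2 fold change of 0.24 with an interval of 0.09 to 0.39 (edgeR adjusted p = 0.142). Neu1 held 36.8 to 42.2 CPM in CR tumors (median 39.1) and 33.8 to 38.8 CPM in PR tumors (median 36.6), a log2 fold change of 0.13 with an interval of 0.07 to 0.19 (edgeR adjusted p = 0.12). The ranges of CR and PR tumors overlapped for all 3. The outcome turned with the tool and with single tumors. DESeq2 called Ctsh, Man2b1 and Neu1, with 4.11% of all genes called, and limma-voom with quality weights called 8 members, with 11% of all genes called. Without PR replicate 7 of Day-1, edgeR called 8 members, with 8.07% of all genes called, and without CR replicate 3, PR replicate 9 or PR replicate 12 it called those 3, with 4.13%, 4.07% and 3.56% of all genes called. Without PR replicate 6 it called Neu1 alone, with 0.258% of all genes called, and without any other single tumor it called none.

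Ctsk and Acp5 pointed the other way before CY, without passing. Ctsk held 298 to 1210 CPM in CR tumors (median 711) and 502 to 1860 CPM in PR tumors (median 817) at Day-1, with a log2 interval of -0.78 to 0.17. Acp5 held 209 to 927 CPM in CR tumors (median 487) and 330 to 1520 CPM in PR tumors (median 576), with an interval of -0.89 to 0.11. At Day+7 the estimate was 0.44 for Ctsk, with an interval of -0.14 to 1.02, and it was 0.22 without CR replicate 4 and 0.29 without CR replicate 3. Naglu had the smallest p at Day+3 and Day+7, with log2 fold changes of -0.09 (interval -0.25 to 0.07) and -0.24 (interval -0.54 to 0.05). Leaving out 1 tumor gave -0.11 to -0.04 at Day+3, with the smallest size without CR replicate 5. At Day+7 it gave -0.32 to -0.13, with the smallest size without CR replicate 4. The Day+7 value was -0.01 without the tumors above 10 CPM of Krt5, a setting that left 3 CR and 2 PR tumors. The 95% interval lay within 0.5 on either side of 0 for 35 of the 40 members at Day-1, 38 at Day+3 and 32 at Day+7. The macrophage markers summed to 2080 to 3820 CPM in CR tumors (median 2470) and 1450 to 2820 CPM in PR tumors (median 2370) at Day-1. Of these 10 markers 9 had a positive log2 fold change (median 0.32), 6 with an unadjusted p under 0.05. The T cell markers summed to 41 to 132 CPM in CR tumors (median 75.8) and 26.5 to 102 CPM in PR tumors (median 49.2), and all 6 had a positive log2 fold change (median 0.68) with an unadjusted p under 0.05. None of these markers passed after adjustment, and their part in the values of the members was not tested.

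**Figure D3:**
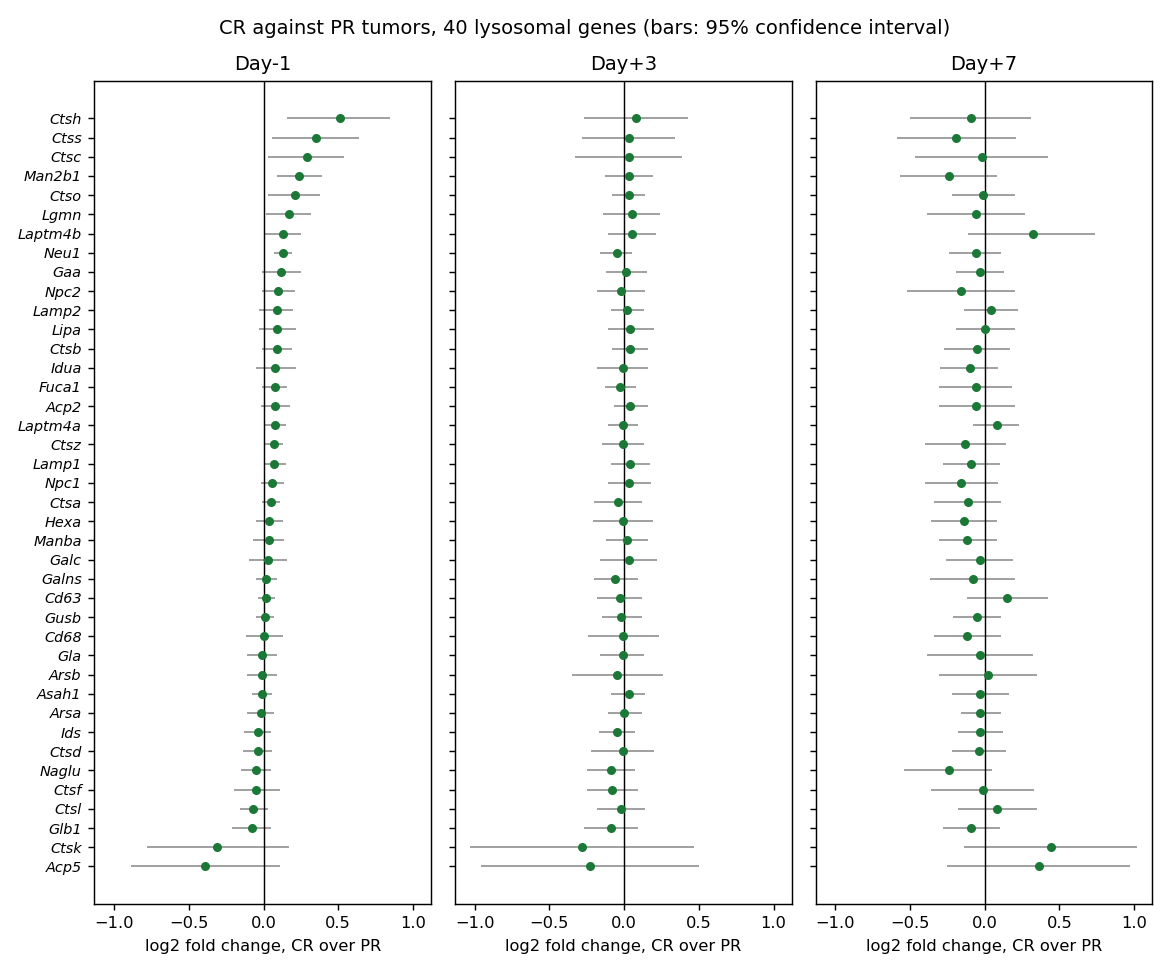
Log2 fold change of CR over PR tumors for the 40 members at Day-1, Day+3 and Day+7, with 95% confidence intervals as bars, ordered by the Day-1 value. Ctsh, at 0.51, and Acp5, at -0.39, are the ends at Day-1, and at Day+3 every interval includes 0.

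The change over time was also compared between CR and PR tumors. No member was called in the CR-PR difference at Day+3 against Day-1, where 0% of all genes were called, or at Day+7 against Day-1, where 0.00758% were. At an unadjusted p under 0.05, 1 member of 40 differed in the first, Neu1, against 3.49% of all genes. In the second 8 of 40 differed, against 11.5% of all genes, and all 8 were negative, against 5.62% of all genes that were negative at that p. Man2b1 had the smallest p in the second, where its rise was smaller in CR than in PR tumors by a log2 difference of -0.49 ± 0.138, with an interval of -0.77 to -0.21 (edgeR adjusted p = 0.278). This value ranged from -0.56 to -0.37 with 1 tumor left out. CR replicate 4 had the lowest Man2b1 of the Day+7 tumors, at 512 CPM. Within time points, CR over PR for Man2b1 was 0.24 at Day-1 and -0.24 at Day+7, and both enter the difference. For Neu1 the differences were -0.19 ± 0.0611 and -0.20 ± 0.061 (edgeR adjusted p = 0.979 and 0.318), and for Npc1 the difference at Day+7 was -0.22 ± 0.09 (edgeR adjusted p = 0.365).

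Before CY the members also differed among tumors of the same group, some of them along with marker scores and some against them. Correlations between members were not computed. Each member was set against a score of 10 macrophage markers, none of them a member, over the 26 Day-1 tumors (mean z-score of log2 CPM). These relations share libraries and scaling, and 40 were computed for each score. They were computed for the members alone, here and at the later time points. The counts that passed therefore cannot be set against a share of all genes. With two-sided permutation tests of 100000 resamples and an adjusted p under 0.05, 16 members were positive, 5 negative and 19 did not pass. Ctss had r = 0.93 and rho = 0.92 (permutation p = 1e-05 for both, the smallest that could be had, adjusted p = 3.08e-05 and 5e-05), r = 0.87 within CR, 0.94 within PR and 0.88 without the 2 tumors farthest from the median score. Lgmn had r = 0.92 and rho = 0.89, Acp2 0.92 and 0.88, Man2b1 0.91 and 0.83, and Ctsh 0.84 and 0.87, each at the same smallest permutation p, and without the 2 farthest tumors r was 0.89, 0.87, 0.83 and 0.76. The 5 negative members were Glb1 (r = -0.83, rho = -0.77), Ctsk (-0.79 and -0.76), Acp5 (-0.79 and -0.75), Arsb (-0.64 and -0.66) and Cd68 (-0.45 and -0.48). Their r without the 2 farthest tumors was -0.73, -0.66, -0.67, -0.51 and -0.38. The weakest of them, Cd68, had permutation p = 0.0194 for r and 0.0149 for rho (adjusted p = 0.037 and 0.0285). Ctsd, at r = -0.20, did not pass (permutation p = 0.336, adjusted p = 0.387).

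A score of the 7 osteoclast markers was added after these data were seen. Over the same tumors, 9 members were positive, 14 negative and 17 did not pass. Ctsk and Acp5 both had r = 0.97 and rho = 0.96 with it (permutation p = 1e-05, the smallest that could be had, adjusted p = 6.67e-05), at r = 0.98 and 0.97 within CR, 0.96 and 0.97 within PR, and 0.96 for both without the 2 farthest tumors. Glb1 followed at r = 0.86 and rho = 0.85, Cd68 at 0.73 and 0.73, Naglu at 0.71 and 0.71, and Arsb at 0.63 and 0.55, while Lgmn had r = -0.86 and rho = -0.84. Arsb had the largest permutation p of these, at 0.00056 for r and 0.00426 for rho (adjusted p = 0.00187 and 0.01). Without the 2 farthest tumors r was 0.84 for Glb1, 0.67 for Cd68, 0.65 for Naglu, 0.62 for Arsb and -0.81 for Lgmn. The scores themselves ran against each other at Day-1, with r = -0.70 and rho = -0.65 (permutation p = 7e-05 and 0.00048) and r = -0.58 without the 2 farthest tumors. The tumors were deposited with title numbers, and within those up to 14 and those above 14, r between Ctsk and the osteoclast score was 0.98 and 0.95, and r between Ctss and the macrophage score was 0.96 and 0.92.

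**Figure D4:**
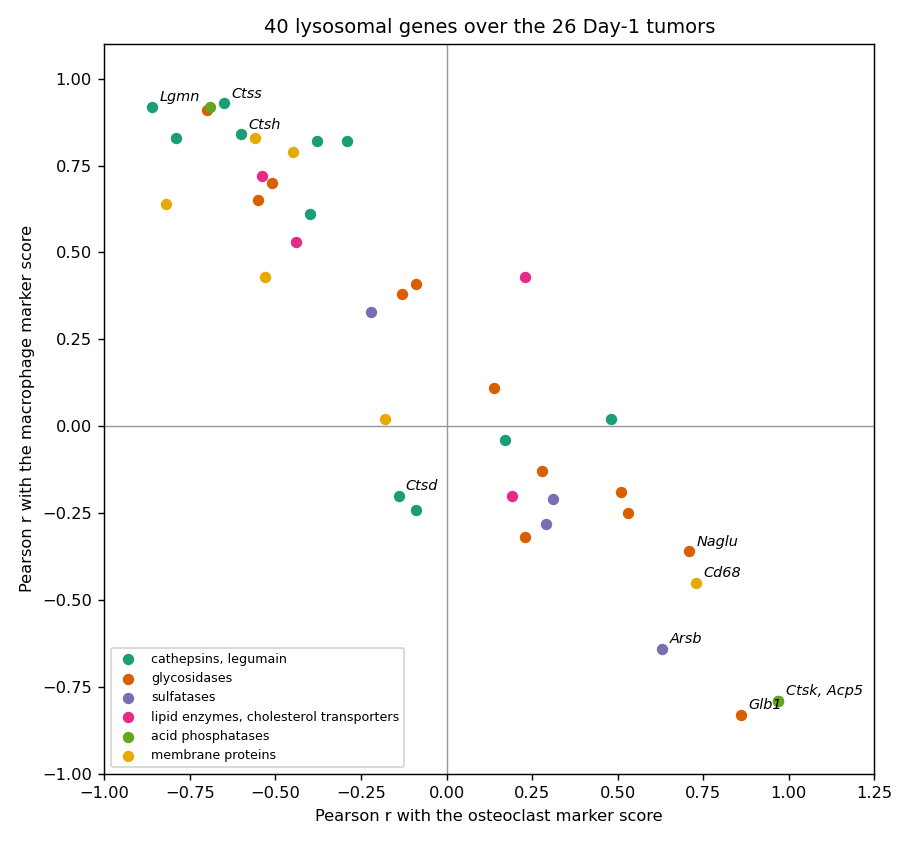
Pearson r of each of the 40 members with the osteoclast marker score (x axis) and with the macrophage marker score (y axis) over the 26 Day-1 tumors, coloured by role. Ctsk and Acp5 share the lower right corner at 0.97 and -0.79, and Lgmn, at -0.86 and 0.92, is at the upper left.

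The same relations were computed in the 10 tumors of each later time point, also after these data were seen. At Day+3 Ctsk and Acp5 again had r = 0.99 with the osteoclast score (permutation p = 1e-05, adjusted p = 0.0002 for both), and 0.98 and 0.99 without the 2 farthest tumors. At Day+7 Ctsk had r = 0.02 and Acp5 0.10 with that score (permutation p = 0.948 and 0.791), and none of the 40 members passed. Both genes were below their Day+3 levels there. Of the score's markers, Calcr and Oscar had Day+7 medians of 0.176 and 0.917 CPM, and the others of 8.6 CPM or more. The part of these levels in the lower r was not tested. Ctss kept a positive r with the macrophage score, at 0.80 at Day+3 and 0.75 at Day+7 (permutation p = 0.0035 and 0.00462, adjusted p = 0.028 and 0.0264), with rho = 0.64 and 0.84 (permutation p = 0.0548 and 0.00345) and r = 0.70 and 0.81 without the 2 farthest tumors. Glb1, negative at Day-1, had r = -0.64 with the macrophage score at Day+3, which did not pass (permutation p = 0.035, adjusted p = 0.127) and was -0.18 without the 2 farthest tumors. At Day+7 it had r = 0.88 and rho = 0.90 (permutation p = 0.00115 and 0.00077, adjusted p = 0.0156 and 0.009), and r = 0.78 without the 2 farthest. Cd68 had r = 0.76 and rho = 0.79 at Day+7 (permutation p = 0.00991 and 0.00872, adjusted p = 0.0364 and 0.0317), and r = 0.58 without the 2 farthest. In all, 5 members were positive with the macrophage score at Day+3 and 12 at Day+7, and none was negative.

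**Figure D5:**
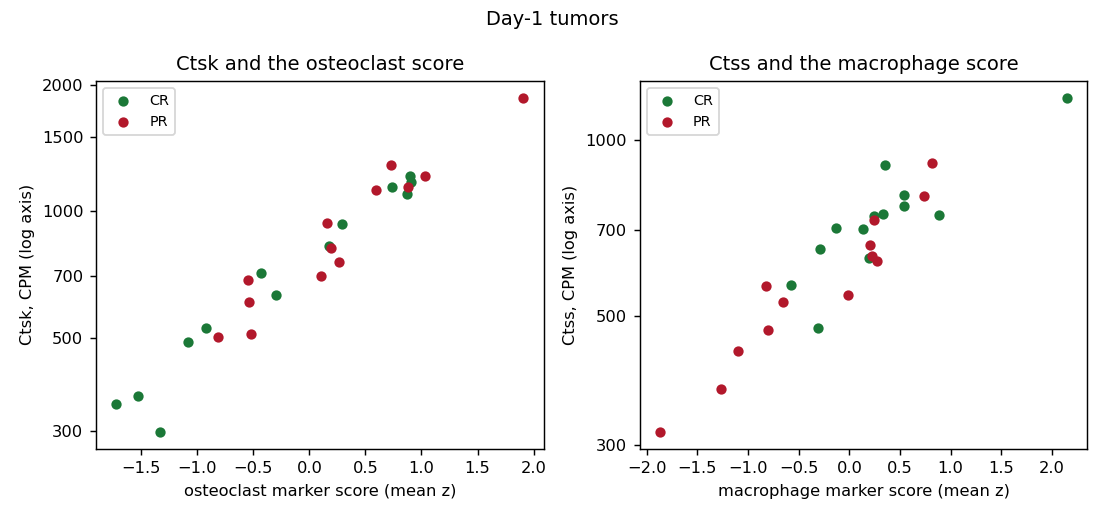
CPM on a log axis in the 26 Day-1 tumors, for Ctsk against the osteoclast marker score and Ctss against the macrophage marker score (mean z-scores), with CR tumors in green and PR tumors in red. Both rise steadily along their score. CR and PR tumors overlap in the middle but not at the ends. The macrophage score runs from -1.87 to 0.816 in PR tumors and from -0.573 to 2.15 in CR tumors. The osteoclast score runs from -0.815 to 1.909 in PR tumors and from -1.722 to 0.905 in CR tumors.

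Some counts could be shared with neighbours, since the strand used for counting is not given in the sources used here. By GENCODE M21, 34.4% of the exon bases of Ctsd are shared with Gm49369 on the same strand, which had a median of 80.5 counts over the 46 tumors, against 13213.5 for Ctsd. Of Arsb, 32.3% are shared with Gm26527 on the opposite strand. Of Acp2, 12.6% are shared with Ddb2 on the opposite strand, at a median of 273.5 counts, against 1922 for Acp2. Other members shared at most 26.8% of their exon bases with a neighbour. The values of these members are uncertain to that extent.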

How the data were processed

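Bulk RNA of 46 tumors was sequenced as single-end reads. Per the labels and the study's methods, the authors quantified reads with kallisto on GRCm38.p6 (version not given in the sources used here) and deposited one table of counts per gene symbol, in whole numbers. The table used here ends within the row of Pax7, so 1 incomplete row was left out and later symbols were not analysed here. Fits used edgeR 4.0.16 in R 4.3.3: TMM factors, filterByExpr, the quasi-likelihood test and Benjamini-Hochberg adjustment over all genes tested, called at 0.1. CR against PR was fitted within each time point, and time and CR-PR differences came from a model of 6 groups over all 46 tumors, with both responses given equal weight. CPM values used TMM library sizes summed over the rows present, not over whole libraries, and scores used log2 CPM with a prior count of 2. DESeq2 1.42.0, limma-voom (limma 3.58.1), other scalings, filters, covariates and left-out tumors were alternatives. The fits and correlations were tested on simulated data. Named members were, for each role, the 3 with the smallest p at Day+3 and Day+7 against Day-1, the 3 with the smallest p for response, and those called against their role; Ctss, Ctso, Lgmn, Cd68 and the singled-out pathway genes Atp6v0d2, Gnptab, Cst6, Mtor, Fnip1 and Fnip2 were added after their values were seen. The members and lists were chosen with earlier results of these data known. Of 1035 pairs of libraries, 0 were identical. A mouse gave only 1 tumor to sequencing, so p-values measure the spread between mice. Promoters came from RefSeq (GRCm38.p6). For 6 members no window was matched and none is shown.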

Additional observations from a re-analysis of the deposited data

Results flagged for a closer look

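Among the named members, 128 sets of 5 tumors were examined for a tumor far from the others, and 5 sets held one, where chance gives about 1 in 20. At Day+7, CR replicate 4 had the lowest Lipa, at 139 CPM, against 173 to 179 CPM in the other 4 CR tumors, and the highest Laptm4b, at 137 CPM, against 68.3 to 85.2 CPM. The same tumor had the high fibroblast markers. CR replicate 2 had the highest Ctsf, at 42.7 CPM, against 26.6 to 29.9 CPM. PR replicate 3 had the lowest Ctsl, at 814 CPM, against 950 to 982 CPM in the other 4 PR tumors, and the highest Acp5, at 180 CPM, against 97.6 to 121 CPM. No cause was tested.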

How the results depend on the processing

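The counts of members called over time stayed within 1.5 times under all alternatives except that library size alone, without TMM, gave 20 members lower at Day+7 against Day+3, against 13. The share of all genes called lower under that scaling is not given here, so the 20 cannot be set against it. In CR against PR at Day-1, DESeq2 called 3 members and limma-voom 8, and leaving out 1 tumor gave 0 to 8. With title numbers above 14 against the rest as a covariate, 1 member, Neu1, was called (edgeR adjusted p = 0.0643). The share of all genes called in that fit is not given here. In the other response comparisons no alternative called a member. With the macrophage score as covariate, values turned at Day+3 against Day-1 for Ctsh (-0.70), Ctss (-0.46), Lamp2 (-0.07), Acp2 (-0.04) and Arsb (0.18), at Day+7 against Day-1 for Ctsk (1.80), Acp5 (1.50), Lgmn (-0.50), Galc (-0.49), Ctsc (-0.20) and Arsb (0.04), and at Day+7 against Day+3 for Glb1 (0.03). The summed macrophage markers did not overlap between Day-1 and the later days, so the values against Day-1 are extrapolated. With library size alone, Glb1 turned to -0.10 at Day+7 against Day-1, and Ctsa and Neu1 turned to -0.01 at Day+7 against Day+3. Without the tumors above 10 CPM of Krt5, a setting that left 3 CR and 2 PR tumors at Day+7, Man2b1 in CR against PR there was 0.00. The macrophage score was negative for 3 members within PR, against 5. The osteoclast score, chosen after seeing the data, was positive for 4 members within PR, against 9, and negative for 4 within CR, against 14. The cause was not tested. With library size alone the median log2 fold change of all genes was 0.095 at Day+3 and -0.17 at Day+7 against Day-1 and -0.261 at Day+7 against Day+3, against -0.02, -0.01 and 0.02. No paired analysis was possible because no mouse gave more than 1 sequenced tumor and replicate numbers follow only the order of the samples. Groups of 5 tumors after CY limit the response comparisons there.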
